A study of Homo sapiens with 2 samples.

Results

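The long arm of chromosome 17 from band 17q21 to its end was examined in H3K27ac HiChIP data of HCT116, a segment that is known as gained in the karyotype of this cell line. Its members were all HiChIP anchors on chromosome 17 from a fixed position just above 38 Mb (hg19) to the end of the chromosome, and all pairs with both anchors there. They comprised 4988 of the 250223 anchors of the data, 2.02% of the autosomal ones, and the first anchor started at position 38104923 while the last ended at 81187554. Pairs within the segment numbered 44293 of 1540905 in replicate 1 and 49798 of 1740528 in replicate 2. The data hold 2 replicates of 1 condition, HCT116 cells with no treatment named, an established human colorectal carcinoma line, and nothing states whether the replicates were separate cultures. The values are therefore descriptions of these libraries, with no comparison of conditions. The authors' raw counts of paired-end tags summed to 1885481 and 2131466 in replicates 1 and 2, and the segment held 62349 (3.31%) and 70666 (3.32%) of them.

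H3K27ac is a histone mark of active enhancers and promoters. In HiChIP, chromatin is cut, here with MboI, nearby ends are ligated, and fragments that carry the mark are pulled down, and each read pair sequenced records that the ends of a fragment lay close together. An anchor is a region of marked chromatin, and a loop is a pair of different anchors joined by at least 1 tag. The number of tags at an anchor rises with the amount of the mark, with how often the anchor meets others and with how many copies of the region a cell carries. Extra copies of chromosome segments are frequent in colorectal cancer cells. HCT116 is a near-diploid line, and its published karyotypes carry extra material of 17q, 8q and 10q on rearranged chromosomes. A region copied onto another chromosome keeps its contacts within itself, while contacts across its break point come only from the copies that stayed in place. No DNA input or copy number track was used here, so more copies and more tags per copy cannot be told apart.

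Sequences of the segment that recur in the results are shown first (hg19, 5′ to 3′). The promoters of CUEDC1 and VEZF1 lie in deep anchors that are joined by one of the strongest loops of the segment. Shown are the 250 bases before each transcription start site on the minus strand, at chr17:56032774-56033023 for CUEDC1 and chr17:56065616-56065865 for VEZF1, with matches of GGGCGG, the GC box, on either strand in capitals.
CUEDC1 promoter: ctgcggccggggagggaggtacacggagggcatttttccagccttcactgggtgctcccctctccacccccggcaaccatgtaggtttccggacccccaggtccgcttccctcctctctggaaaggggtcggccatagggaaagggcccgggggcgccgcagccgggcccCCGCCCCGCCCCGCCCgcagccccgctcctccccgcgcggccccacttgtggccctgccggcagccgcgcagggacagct
VEZF1 promoter: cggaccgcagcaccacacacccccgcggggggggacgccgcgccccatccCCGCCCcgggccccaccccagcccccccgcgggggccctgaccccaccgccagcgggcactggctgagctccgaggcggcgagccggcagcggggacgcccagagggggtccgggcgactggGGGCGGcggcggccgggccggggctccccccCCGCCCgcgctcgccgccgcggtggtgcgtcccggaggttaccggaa
The GC box matched 3 times in each of the promoters of CUEDC1 and VEZF1, whose GC content was 74.0% and 84.0%. Of all 18978 autosomal protein-coding promoters, 59.5% held it in the same window, and of the 643 in the segment 61.6% did. The AP-1 motif TGANTCA, the TCF7L2 motif CTTTGAT, the CTCF motif and the MboI site GATC had no match in either window.

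The downstream anchor of the VMP1 loop that passed the test in both replicates, and the deepest anchor of the segment, in an intron of SLC39A11, lie outside promoters. For each, 300 bases of the plus strand are shown that hold the most matches of TGANTCA in the anchor, with the matches in capitals, at chr17:57906600-57906899 and chr17:70713863-70714162.
VMP1 downstream anchor: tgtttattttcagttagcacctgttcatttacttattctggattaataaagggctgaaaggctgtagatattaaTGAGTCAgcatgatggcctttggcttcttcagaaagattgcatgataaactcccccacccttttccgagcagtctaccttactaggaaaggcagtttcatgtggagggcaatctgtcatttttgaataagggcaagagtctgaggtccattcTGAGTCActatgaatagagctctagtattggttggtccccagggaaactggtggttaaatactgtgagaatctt
SLC39A11 anchor: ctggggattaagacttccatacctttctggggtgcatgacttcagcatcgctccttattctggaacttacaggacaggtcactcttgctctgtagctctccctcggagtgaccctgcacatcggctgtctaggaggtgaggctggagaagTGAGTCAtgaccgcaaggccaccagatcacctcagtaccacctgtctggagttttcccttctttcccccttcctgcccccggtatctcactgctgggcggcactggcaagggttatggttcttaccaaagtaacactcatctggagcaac
The whole anchors held 3 matches in 3971 bases and 2 in 4876 bases. Neither had a match of the CTCF motif. Among the windows of 300 bases in autosomal anchors, 9.73% held TGANTCA, so a match is common. Over all anchors of the segment the motif occurred 0.329 times per kb, compared with 0.310 on chromosome 17 below the segment and 0.353 on the other autosomes. The CTCF motif occurred 0.0450, 0.0425 and 0.0304 times per kb, and GATC 2.45, 2.54 and 2.26 times per kb. A match is a description of the letters and not of binding.

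Anchors of gained 17q carried nearly double the tags of anchors elsewhere. Counting tags of pairs of different anchors up to 2 Mb apart, where a tag counts at both of its anchors, the segment had 17.4 tags per anchor in replicate 1 and 20.2 in replicate 2, or 18.8 ± 1.99 (SD, n = 2). Chromosome 17 below the segment had 8.96 and 10.4, and the other autosomes had 9.42 and 10.9. The segment was above both in each replicate, although replicate 2 was the deeper library throughout. The ratio of the segment to the other autosomes was 1.84 in replicate 1 (exact conditional 95% interval, 1.83 to 1.86) whereas replicate 2 gave 1.86 (1.85 to 1.87), and their mean was 1.85 ± 0.00979 (SD, n = 2). The ratio to the rest of chromosome 17 was 1.94 ± 0.00224 (SD, n = 2). The difference was therefore far larger than the spread of the ratios between replicates. Each tag enters these intervals at both of its anchors, so they are narrower than the counting error of the tags. They cover no other source of error, and no molecular identifiers are given for the tags. The data hold 1 group of 2 replicates, and no permutation test was run.

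**Figure D1:**
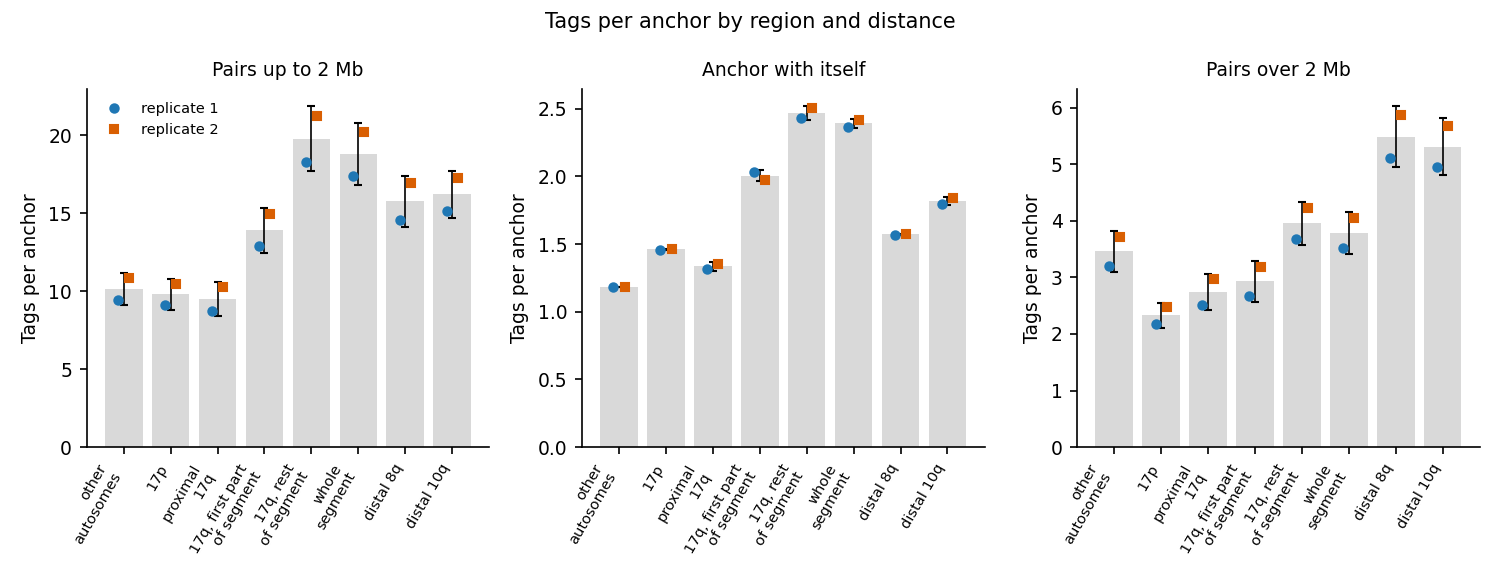
Tags per anchor (y axis) by region (x axis) for pairs up to 2 Mb, for an anchor with itself and for pairs over 2 Mb; points are replicates, bars the mean and whiskers the SD (n = 2), and the first part of the segment runs from its start to 46 Mb. For pairs up to 2 Mb the segment from 46 Mb has 18.3 and 21.3 tags per anchor, above distal 8q (14.6 and 16.9, from 66 Mb) and distal 10q (15.1 and 17.3, from 97 Mb).

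The shift involved the whole range of anchors and not a few deep ones. Summed over both replicates, the median anchor of the segment had 30 tags, compared with 16 on chromosome 17 below the segment and 16 on the other autosomes. The 5th percentile was 10 against 5 and 5, and the 95th percentile was 89 against 46 and 47. Both ends of the distribution were thus shifted along with the middle. Of the 2470 deepest autosomal anchors, those with at least 79 tags, 347 (14.0%) lay in the segment, which is 6.96% of its anchors. Almost all members were measured, as 4944 of the 4988 anchors (99.1%) had tags up to 2 Mb in both replicates.

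Anchors of the segment also differed in properties that the rule did not use. There were 116 anchors per Mb of sequenced bases, compared with 102 on the rest of chromosome 17 and 91.6 on the other autosomes. The median anchor width was 2592 bp, 2335 bp and 2550 bp, and the GC content 46.2%, 46.5% and 41.8%. Promoters (a transcription start site ± 2.5 kb) were overlapped by 11.8%, 11.7% and 6.36% of the anchors. When the other autosomes were matched to the segment on width, GC content, MboI sites, promoter overlap and anchor density, the ratio was 1.57 ± 0.0101 (SD, n = 2, 4986 anchors with a match). The same standardisation gave 0.939 for chromosome 17 below the segment, 1.43 for distal 8q and 1.41 for distal 10q. The ratio of the segment was thus lower after matching, and it stayed above those of distal 8q and distal 10q. For anchors without a promoter, the segment had 16.4 and 19.01 tags per anchor in replicates 1 and 2, against 9.07 and 10.4 on the other autosomes.

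The range of the tags changed the ratio. For counts of an anchor with itself, which need no contact between anchors, the segment had 2.37 and 2.42 tags per anchor in replicates 1 and 2, against 1.19 and 1.19 on the other autosomes, a ratio of 2.02 ± 0.0307 (SD, n = 2). For pairs more than 2 Mb apart it had 3.51 and 4.05, against 3.20 and 3.72, a ratio of 1.09 ± 0.00594 (SD, n = 2). Against chromosome 17 below the segment, which had 2.30 and 2.66, the ratio for these pairs was 1.52 ± 0.00425 (SD, n = 2). The segment was thus above the rest of its own chromosome in all 3 ranges, but barely above the other autosomes in the longest one. That last ratio was not matched for distance or chromosome length. Summed over both replicates, tags over 2 Mb per anchor were 3.06 on 21q and 8.64 on 2q. At matched distance, as described below, the ratio to the other autosomes was 1.16 ± 0.0317 from 2 to 10 Mb and 1.31 ± 0.0315 from 10 to 50 Mb (SD, n = 2).

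Among the 39 autosomal arms with at least 100 anchors, 17q had the highest depth, with 33.6 tags per anchor summed over both replicates. It was followed by 8q with 29.1, 10q with 25.4 and 16q with 23.2, while 17p was at rank 22 with 19.6. Along the arm the level was not that of a single block. In windows of 2 Mb, 18 of the 21 windows from 38 Mb on lay above 25.6, the 90th percentile of 1180 windows on other autosomes, compared with 2 of the 18 windows below 38 Mb. Of the windows from 46 Mb on, 16 of 17 did, but only 2 of the 4 from 38 to 46 Mb. The exception in the distal part was the window from 52 to 54 Mb, with 10.8 and 11.5 tags per anchor in replicates 1 and 2. The window from 50 to 52 Mb held 45 anchors, none at a promoter, and had 1.91 and 3.24 tags per anchor, and it was not among the windows counted because it has fewer than 50 anchors.

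The level was highest near the end of the arm and around 70 Mb. The window from 70 to 72 Mb, which holds SLC39A11 and part of LINC00511, had 24.1 and 27.5 tags per anchor in replicates 1 and 2, and that from 78 to 80 Mb had 22.4 and 28.3. The window from 46 to 48 Mb, with the HOXB cluster, had 21.7 and 24.2. Between them, the windows from 60 to 70 Mb stayed within 15.0 to 16.3 in replicate 1 and 17.6 to 19.2 in replicate 2. All of these lay above the windows of chromosome 17 below 36 Mb, which reached at most 12.5 and 14.7.

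The rise did not coincide with the start of the segment. In a search over bins of 0.5 Mb along the q arm, chosen after the profile had been seen, the single step that took up the most variance lay at 45 Mb in both replicates, with a fold of 1.99 and 1.97 and 35.6% and 36.6% of the variance between bins. For pairs over 2 Mb it lay at 44.5 Mb, but for counts of an anchor with itself at 70 Mb. From the segment start to 46 Mb the depth was 12.9 and 14.9 tags per anchor in replicates 1 and 2, and from 46 Mb to the end 18.3 and 21.3. Relative to chromosome 17 below the segment, these were 1.44 and 2.04 times as high. After standardisation for anchor properties the ratios to the matched autosomal anchors were 1.21 ± 0.00469 and 1.64 ± 0.0113 (SD, n = 2). With the boundary at 45 Mb they were 1.17 ± 0.00659 and 1.64 ± 0.0109 (SD, n = 2). Averaged over its anchors, the first part of the segment thus had a level between that of the proximal arm and that of the rest. Its windows differed, however. Those from 40 to 42 and from 42 to 44 Mb had 11.2 and 13.1, and 10.0 and 11.6 tags per anchor in replicates 1 and 2. The last window below the segment, from 36 to 38 Mb, had 12.6 and 13.7. Depth was thus not uniform over the segment or its first part.

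Details near the step are set by few anchors. In the bins at 43.5 and 44 Mb, which held 36 and 24 anchors, the depth fell to 2.19 and 1.33 tags per anchor in replicate 1 and to 2.39 and 1.79 in replicate 2. The bin at 44.5 Mb had 10.0 and 10.8, that at 45 Mb 14.7 and 17.2, and that at 46 Mb 22.2 and 26.0. The window from 38 to 40 Mb, which holds the keratin cluster, was higher than its neighbours, at 16.5 and 19.1. The promoter share was 25.8% of the anchors from the segment start to 45 Mb and 9.44% from there on, and promoters are deeper than other anchors, so the lower level up to 45 Mb went with a higher share of promoters.

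Contacts at matched distance gave the same order. Here the count of all pairs of a class was divided by the count expected from the distances of its anchor pairs, with the expectation taken from all autosomes. Between 20.9 kb and 2 Mb, pairs within the segment had 1.59 times the expected count in replicate 1 (exact Poisson 95% interval, 1.58 to 1.61) and 1.60 times in replicate 2 (1.59 to 1.62). Pairs within chromosome 17 below the segment had 0.919 and 0.929 times, and pairs within the other autosomes 0.987 and 0.987 times. The ratio of the segment to the other autosomes was 1.62 ± 0.00676 (SD, n = 2). Within the segment, pairs from 46 Mb on had 1.66 and 1.66 times the expected count and pairs between the segment start and 46 Mb 1.24 and 1.28 times. Pooled over these distances, the value was above 1 on both sides of 46 Mb. It was larger on the distal side, with intervals of 1.64 to 1.68 and 1.20 to 1.29 in replicate 1. In the first part the excess was uneven. Its pairs of 205 kb to 2 Mb had 1.01 and 1.05 times the expected count in replicates 1 and 2. By windows of 2 Mb, the values were 1.52 and 1.55 from 38 to 40 Mb. They were 1.00 and 1.03 from 40 to 42 Mb, 0.985 and 1.02 from 42 to 44 Mb, and 1.32 and 1.34 from 44 to 46 Mb.

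Pairs that cross the start of the segment were not raised. Across it, 158 and 135 tags were counted in replicates 1 and 2 against 195 and 226 expected, or 0.810 times (exact Poisson 95% interval, 0.688 to 0.946) and 0.599 times (0.502 to 0.709). Relative to pairs within the segment the ratio was 0.508 and 0.373, a mean of 0.441 ± 0.0951 (SD, n = 2). Relative to pairs within chromosome 17 below the segment it was 0.880 and 0.645. The low value was present in both replicates, but they differed from each other by more than the other classes did. Across 41 Mb, inside the segment, pairs had 0.739 and 0.788 times the expected count in replicates 1 and 2. A low value was thus not particular to the segment start. Across 46 Mb, pairs had 1.13 and 1.19 times the expected count, which is 0.698 ± 0.0241 (SD, n = 2) of the value within the part from 46 Mb on. For the pairs across 46 Mb of up to 205 kb, 54 and 75 tags were counted against 21.5 and 25.1 expected, so the short contacts at this position were raised and not lowered.

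Over longer distances pairs within the part from 46 Mb on remained the highest class, while the order of the others changed. Between 10 and 50 Mb, in distance classes from 9606 to 52053 kb, pairs within the part from 46 Mb on had 1.46 and 1.47 times the expected count in replicates 1 and 2. Pairs across 46 Mb had 0.878 and 0.944 times, and pairs across the segment start 0.794 and 0.835 times. From 2 to 10 Mb, pairs within the whole segment had 1.18 and 1.13 times, pairs within the part from 46 Mb on 1.25 and 1.21 times, and pairs across the segment start 0.734 and 0.771 times. Pairs of the first part, up to 46 Mb, had 0.699 and 0.684 times in this range, lower than within chromosome 17 below the segment, where the values were 0.823 and 0.839. The first part of the segment was thus above the rest of the chromosome at distances up to 2 Mb but not from 2 to 10 Mb.

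**Figure D2:**
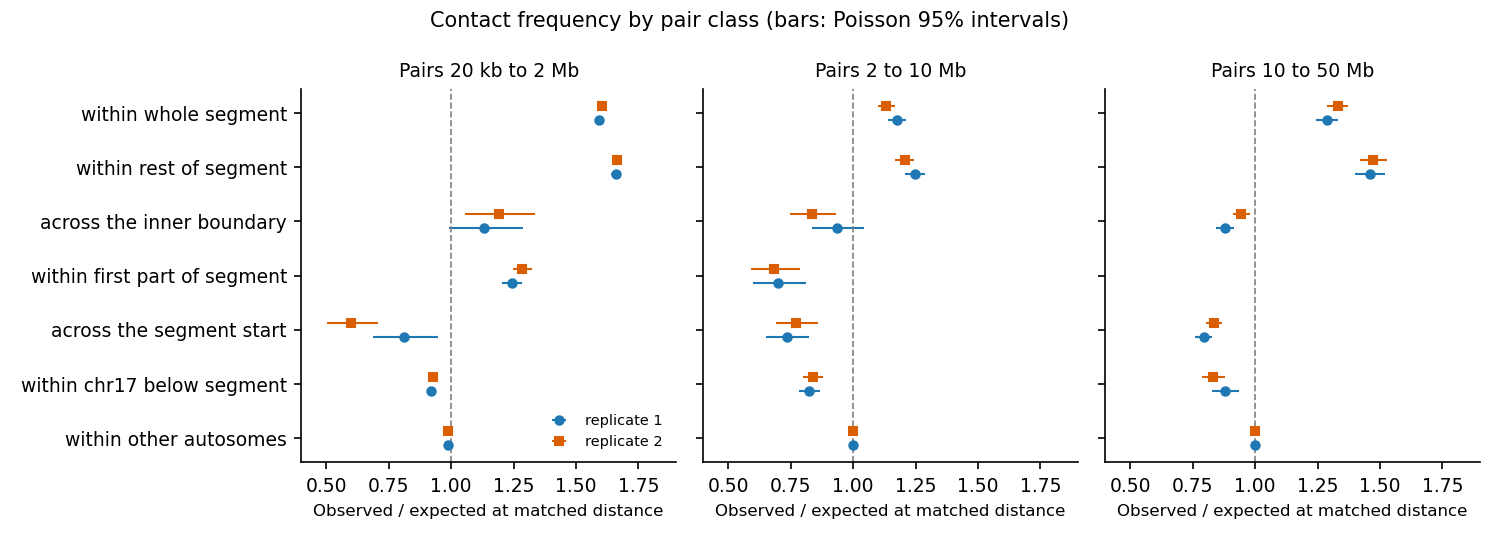
Observed over expected count at matched distance (x axis) for pair classes (y axis) in 3 distance ranges, with exact Poisson 95% intervals per replicate; the inner boundary is 46 Mb, and pairs within the first part reach no distance over 10 Mb. Pairs within the rest of the segment lie highest in each range, and pairs across the segment start lie below 1 in each.

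Strong loops, those with a summed count of at least 5 over both replicates, were more frequent in the segment. Of its 62811 loops up to 2 Mb, 2040 were strong (3.25%, exact binomial 95% interval 3.11 to 3.39%), compared with 1.47% of all loops of the data. On chromosome 17 below the segment 467 loops (1.85%, 1.69 to 2.02%) were strong, and on the other autosomes 26396 (1.41%, 1.39 to 1.42%). Per 1000 anchors these are 409, 132 and 111 strong loops, so the segment had 3.70 times as many per anchor as the other autosomes and 3.10 times as many as the rest of its chromosome. Because the minimum is a fixed raw count, a deeper region holds more strong loops. The counts and shares of strong loops here and below are thus not independent of the depth given above. It held 7.06% of the strong loops of the autosomes and 3.19% of their loops. Distal 8q and distal 10q had 232 and 275 strong loops per 1000 anchors, and 1.99% and 2.39% of their loops were strong. With a minimum of 10 the ratio to the other autosomes was 5.92. Per loop, the ratio to the rest of chromosome 17 was 1.76.

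Strong loops of the segment were found in both replicates in 1988 of 2040 cases (97.5%). Of all loops of the segment, 9124 were found in both, which is 27.1% of the 33701 loops of replicate 1 and 23.9% of the 38234 loops of replicate 2. Strong loops are chosen by the summed count and a loop of 1 tag cannot be in both replicates, so these shares do not compare how well the loops repeat. At least 1 strong loop was present at 43.1% of the anchors of the segment, compared with 17.9% on the rest of the chromosome and 15.6% on the other autosomes.

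The excess involved every length class. Against the rest of chromosome 17 it was largest from 50 kb on, where that part had only 6 and 4 strong loops. Against the other autosomes it did not rise steadily with length. Among loops of up to 10 kb, 25.4% were strong in the segment (exact binomial 95% interval, 24.03 to 26.8%), 11.97% on the rest of chromosome 17 and 9.83% on the other autosomes. Among loops of 50 to 100 kb the shares were 1.52% (1.26 to 1.81%), 0.177% (0.0651 to 0.386%) and 0.461%. Among those of 100 kb to 2 Mb, 85 were strong in the segment (0.217%, 0.173 to 0.268%), 4 on the rest of the chromosome (0.0285%, 0.00777 to 0.0730%) and 938 on the other autosomes (0.0818%). Loops of 20 kb or more made up 26.7% of the strong loops of the segment and 16.3% of those on the rest of the chromosome. Their share was 19.5% on the other autosomes, 24.7% in distal 8q and 25.3% in distal 10q. For strong loops of 20 kb or more, the ratio per anchor of the segment to the rest of chromosome 17 was 5.09. In the longest class, 24 of the 4120 loops from the segment start to 46 Mb were strong (0.583%, 0.374 to 0.866%) and 61 of the 34622 from 46 Mb on (0.176%, 0.135 to 0.226%), so here the first part of the segment was the higher one.

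**Figure D3:**
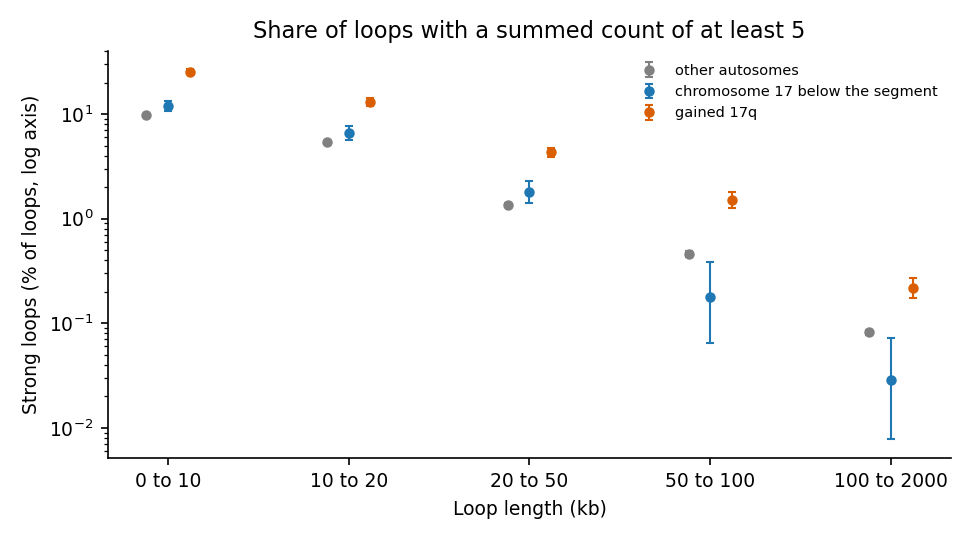
Share of loops with a summed count of at least 5 (y axis, log scale, percent) by loop length (x axis, kb) for gained 17q, chromosome 17 below the segment and the other autosomes, with exact binomial 95% intervals. Gained 17q lies highest in each of the 5 classes, from 25.4% of loops up to 10 kb to 0.217% of those over 100 kb.

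Of the strong loops of the segment, 64.5% had no promoter at either end, 28.1% had a promoter at 1 end and 7.40% at both. On the other autosomes the shares were 73.6%, 21.3% and 5.13%, and on chromosome 17 below the segment 53.8%, 32.3% and 13.9%. These shares followed the share of anchors with a promoter, which was nearly equal in the segment and on the rest of the chromosome, only in part.

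The strongest loops of the segment lay in the body of VMP1, which encodes a membrane protein of the endoplasmic reticulum that acts in autophagy and whose 3′ end lies next to the gene of miR-21, a microRNA abundant in many carcinomas. The loop between the anchors chr17:57859952-57865626 and chr17:57905285-57909255, both in VMP1 introns and 44.5 kb apart, was covered by 46 tags in replicate 1 and by 51 in replicate 2. From distance and from the depth of both anchors, 6.23 and 6.22 were expected, so the ratios were 7.39 (exact Poisson 95% interval, 5.41 to 9.86) and 8.20 (6.10 to 10.8). By an exact Poisson test, one-sided and adjusted after Benjamini-Hochberg for the 51094598 anchor pairs tested, adjusted p was 7.18e-17 and 2.31e-21. It was the strongest loop of the segment at any length. Both of its anchors were deep, with 142 and 180 tags at the upstream one in replicates 1 and 2, and 159 and 153 at the downstream one, while the promoter anchor of VMP1, which also holds that of PTRH2, had 50 and 48. The sequence shown above for VMP1, with its TGANTCA matches, is from the downstream anchor.

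Other strong loops joined the same intronic anchors. The downstream anchor and that at chr17:57913090-57916024, which overlaps exon 11 of VMP1, shared 35 tags at 7.29 kb in replicate 1 and in replicate 2, against 23.5 and 17.3 expected, and it did not pass the exact test (adjusted p = 1 and 1). The upstream anchor and the exon 11 anchor had counts of 15 and 21 at 51.8 kb, against 2.60 and 2.80 expected, and passed the exact test in replicate 2 (adjusted p = 2.39e-05) but not in replicate 1 (0.199). The upstream anchor was also joined to chr17:57830585-57835277, in another intron, with counts of 12 and 19 at 29.9 kb and ratios of 1.56 and 2.14 that did not pass. The hairpin of miR-21 lies at chr17:57918627-57918698, in no anchor, 2.60 kb past the end of the exon 11 anchor, so no loop was assigned to it. The gene was placed by its hairpin alone, and the start of its transcript was not located. Whether the loops above involve that start was therefore not tested.

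In all, 2 pairs of the segment passed this test in replicate 1 at an adjusted p under 0.01, 3 in replicate 2, and 1 in both, the VMP1 loop. Over the genome 9.79e-06% of the pairs tested passed in replicate 1, 3.72e-05% in replicate 2, and 5.87e-06%, or 3 pairs, in both. With summed counts 10 pairs of the segment passed, against 67 (0.000131%) over the genome. This depends on how the depth of an anchor is taken. When anchor depth included the tags of the tested pair, no pair of the segment passed in either replicate or in both, as over the genome (0% each). With summed counts the VMP1 loop alone passed (exact Poisson test, adjusted p = 0.00429), and over the genome 4 pairs did (7.83e-06%). In this setting 150 of the 62811 loops of the segment had an unadjusted p under 0.05 in both replicates. No share over the genome was at hand for this count, so it is not read as an excess. With distance alone as the expectation, 131 and 177 pairs of the segment passed in replicates 1 and 2 and 535 with summed counts, against 0.00259%, 0.00352% and 0.0104% of pairs over the genome. In both replicates 63 passed, of 626 over the genome (0.00123%), or 5.41 per 100000 pairs in the segment, 0.437 on the rest of chromosome 17 and 1.14 on the other autosomes. Most loops that stood out for their distance thus did not stand out for the depth of their anchors.

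Among the loops that passed with summed counts, a pair of them joined introns of LINC00511, a long noncoding RNA, to an anchor in an intron of SLC39A11, a zinc transporter gene. That between chr17:70558513-70564479 and chr17:70710132-70715007, at 151 kb, had counts of 13 and 9, with ratios to the expected count of 15.2 (8.09 to 26.0) and 7.89 (3.61 to 15.0), and passed the exact test in replicate 1 (adjusted p = 0.000162) but not in replicate 2 (0.633). That from chr17:70567088-70571183, 143 kb away, was supported by 7 tags per replicate and passed only with the sum (exact Poisson test, adjusted p = 0.00863). The SLC39A11 anchor was the deepest of the segment, with 168 and 190 tags in replicates 1 and 2 and 16 strong loops. Nearby anchors at chr17:70653603-70660630 and chr17:70635259-70643439 had 138 and 137, and 102 and 116 tags.

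In the keratin region a loop of 617 kb joined chr17:39064368-39073581, which overlaps no gene of those considered, to the anchor of the KRT19 promoter, a keratin of simple epithelia. It had counts of 4 and 6 in replicates 1 and 2 against a summed expectation of 0.722, and passed only with the sum (exact Poisson test, adjusted p = 0.00555). The same distal anchor had 145 and 168 tags and 17 strong loops. Its loop to chr17:39105235-39115510 at exon 7 of KRT39 had counts of 14 and 20 at 41.4 kb, with ratios of 1.32 and 1.82, and that to the neighbouring anchor chr17:39056387-39061604 had 20 and 19 at 9.98 kb, with ratios of 0.668 and 0.479. These loops were strong by count but not above the expectation from the depth of their anchors.

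CUEDC1, which encodes a protein with a ubiquitin-binding CUE domain, and VEZF1, a zinc finger transcription factor gene, are neighbours that were linked by several loops. Their promoter anchors, chr17:56023969-56033424 and chr17:56061686-56074976, were joined at 39.6 kb with counts of 11 and 18 in replicates 1 and 2, at 2.17 and 2.76 times the expected count, and the loop did not pass in either replicate or with summed counts. The CUEDC1 promoter anchor and chr17:56043606-56055156, at exon 6 of VEZF1, had counts of 13 and 15 with ratios of 1.33 and 1.34. A longer loop, from exon 11 of CUEDC1 to the VEZF1 promoter anchor at 130 kb, had counts of 4 and 7 and passed with the sum (exact Poisson test, adjusted p = 0.00463). The promoter sequences of both genes are those shown above.

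The remaining calls with summed counts were of lower count. Near ITGA3, an integrin gene, the anchor at the start of the long noncoding RNA PICART1, chr17:48123970-48133328, was joined to chr17:48099895-48107211 with counts of 10 and 11 in replicates 1 and 2 (exact Poisson test, summed counts, adjusted p = 0.000526), while its loop to exons 2 and 3 of ITGA3 had 24 and 21 at ratios of 2.78 and 1.92 and did not pass. A pair within TMEM104 had 3 and 8 and passed in replicate 2 (exact Poisson test, adjusted p = 0.00628). A pair within SKA2, a gene of the kinetochore, at 6.71 kb had 8 and 5, and a pair of 138 kb from chr17:47937252-47942224 to chr17:48074762-48080627, outside the genes considered, had 4 and 6. With counts this low a few tags decide the call.

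Promoters of the segment were deeper than promoters elsewhere. Of its 643 protein-coding genes, 458 had their transcription start site in an anchor, in 397 anchors. These had 27.7 and 32.9 tags in replicates 1 and 2 on average, compared with 16.9 and 19.7 on chromosome 17 below the segment and 16.6 and 19.5 on the autosomes without chromosome 17. A strong loop was present at 272 of the 397 promoter anchors (68.5%), against 40.1% over all autosomes and 44.9% on the rest of the chromosome. From the segment start to 46 Mb the share was 53.2% and from 46 Mb on 75.6%. A strong loop is a fixed count, so this share is not independent of the depth given above.

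The deepest promoter anchor was that of CUEDC1, with 157 and 183 tags in replicates 1 and 2. It was followed by those of CCDC57, a gene of a centrosomal coiled-coil protein, with 97 and 106, and CBX8, a Polycomb gene, with 95 and 105. The anchor of VEZF1 had 79 and 108, that of SMIM5, a small membrane protein gene, 77 and 108, and that of BAHCC1, which encodes a chromatin protein with a BAH domain, 90 and 89. UBALD2 had 76 and 89, and HOXB9, a homeobox gene, had 79 and 79. CUEDC1 stood apart from the others in both replicates, and the order of the rest differed between them.

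Of the 70 genes of 8 lists drawn up for the segment, 49 had their start site in an anchor, and 37 of these had a strong loop, beside 315 of the 458 genes of the segment in anchors (68.8%) and 41.2% of all autosomal genes in anchors. Their median depth summed over both replicates was 70 tags, compared with 55 for all promoter anchors of the segment and 31 on the autosomes without chromosome 17. The HOXB cluster, homeobox genes of body axis patterning, had 7 of 10 members in anchors, all 7 with a strong loop, and a median of 113 tags. HOXB9 was its deepest member, followed by HOXB4 with 62 and 85 tags in replicates 1 and 2, and HOXB8 was the shallowest with 22 and 21. The strongest loop at HOXB3 and at HOXB4 was the same one, which joined their promoter anchors at 8.86 kb with counts of 6 and 10. Genes of transcription and chromatin had 7 of 8 members in anchors, 6 of them with a strong loop, at a median of 112. CBX8 was the deepest, H3F3B, a histone H3.3 gene, had 76 and 81, and ETV4, an ETS factor gene, and JMJD6, a hydroxylase gene, were the shallowest with 19 and 27, and 21 and 25. SOX9, a transcription factor of intestinal progenitor cells, had 60 and 78.

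Type I keratins, the acidic intermediate filament proteins of epithelia, had 4 of 9 members in anchors and 3 with a strong loop, at a median of 83.5 tags. KRT19 had 49 and 63 tags in replicates 1 and 2, KRT23 had 45 and 62, and KRT16, a keratin of stressed squamous epithelia, had 14 and 15. KRT20, a keratin of differentiated intestinal cells, was in no anchor, nor were KRT10, KRT13, KRT14 and KRT17. Adhesion and matrix genes had 5 of 8 in anchors and 4 with a strong loop, at a median of 79. ITGB3, an integrin gene, was the deepest with 44 and 54, ITGB4 had 34 and 49, and TIMP2, a metalloproteinase inhibitor gene, was the shallowest with 11 and 12. The keratin and integrin lists thus held both deep anchors and members without one.

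Metabolic genes had all 5 members in anchors with a strong loop, at a median of 70 tags. GALK1, galactokinase, had 58 and 71 in replicates 1 and 2, FASN, fatty acid synthase, 38 and 47, and ACLY, ATP citrate lyase, 12 and 18. Genes of RNA binding, vesicle traffic and small RNA had 6 of 7 in anchors and 5 with a strong loop, at a median of 80.5. CLTC, the clathrin heavy chain gene, was the deepest with 49 and 72, next was VMP1, and IGF2BP1, an RNA-binding protein gene, was the shallowest with 12 and 16.

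Lists of cell division and signalling had the lower values. Genes of replication, mitosis and DNA repair had 7 of 9 in anchors but 3 with a strong loop, at a median of 43 tags, below the 55 of all promoter anchors of the segment. PPM1D, a phosphatase gene of the p53 response, had 36 and 41 in replicates 1 and 2, BRIP1, a helicase gene, 28 and 28, and CDC6, a replication licensing gene, 16 and 16. Signalling genes had 8 of 14 in anchors and 4 with a strong loop, at a median of 46. RNF43, a negative regulator of the Wnt pathway, was the deepest with 37 and 64, followed by SOCS3, a cytokine feedback inhibitor, with 22 and 29, and RPS6KB1 and SPHK1 were the shallowest with 7 and 14, and 9 and 12. These lists are described only and were given no test.

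**Figure D4:**
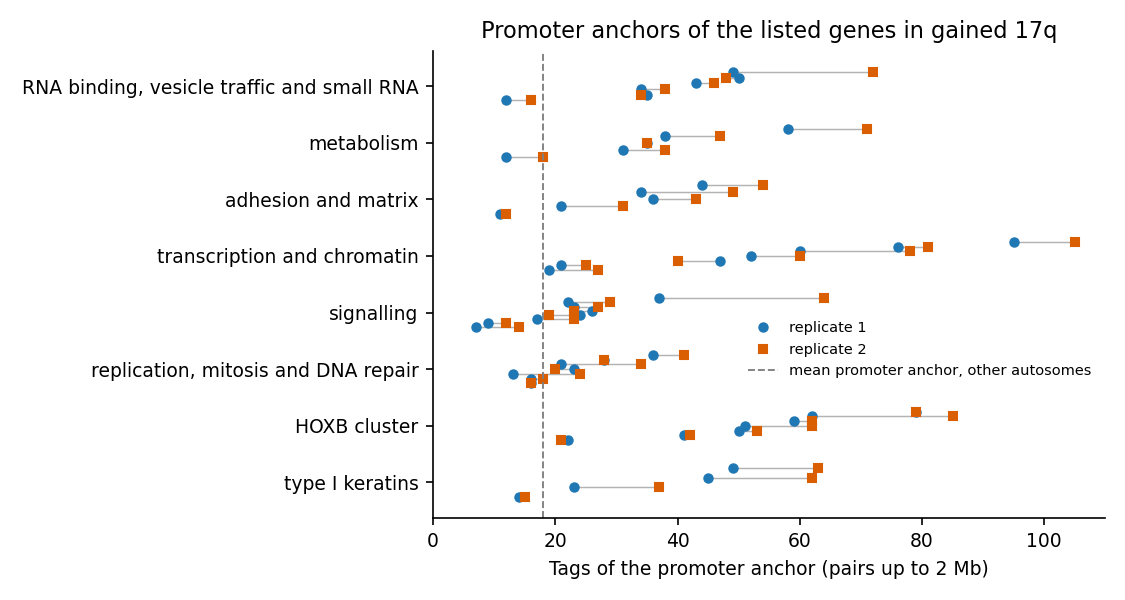
Tags of the promoter anchor (x axis, pairs up to 2 Mb) of the 49 listed genes with an anchor, by list (y axis), with replicates joined by a line and the mean promoter anchor of the other autosomes dashed. The HOXB cluster and the genes of transcription and chromatin lie highest, up to 95 and 105 tags at CBX8, while several signalling and replication genes lie near the dashed line.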

How the data were processed

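H3K27ac HiChIP of HCT116 was analysed in 2 replicates of 1 group. According to the methods and labels, MboI was the restriction enzyme, HiC-Pro gave the valid pairs and hichipper the loops on hg19, and the authors deposited raw counts of tags between 2 anchors of one chromosome, not normalized, with the counts of an anchor with itself included. Versions and the source of the anchors are not given in the sources used here. Anchor ends lay within the nuclear chromosomes of the GRCh37 reference, the mitochondrial sequence of hg19 being another one, and genes were those of GENCODE on GRCh37 with canonical transcripts.

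Depth per anchor was the mean number of tags of pairs of different anchors up to 2 Mb apart. Ratios have exact conditional binomial 95% intervals per replicate, which treat both entries of a tag as separate counts and are therefore too narrow. Expected counts at matched distance used 60 log classes up to 2 Mb and 40 above. Single pairs were tested against distance and anchor weights balanced in 20 rounds, the pair itself left out of the depth with an offset of 0.5. This form was taken over from an earlier analysis of these data, where it was chosen after first calls had been seen. On simulated counts it found a part of the raised pairs and called an occasional pair that had not been raised. The error of the fitted expectations was not recorded there, so ratios may be overstated. Standardisation used 10 width, 5 GC, 3 MboI-site and 5 density classes and promoter overlap, on the other autosomes.

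The segment, the gene lists and the tests were chosen with earlier results of these data known. Genes were named by rule, namely the 8 deepest promoter anchors, the 8 strongest loops of at least 20 kb, the 5 strongest of any length, loops called in both replicates, and the 2 deepest and the shallowest members of each list. Loops called with 1 replicate or the sum, SOX9, HOXB3 and genes in no anchor were added after values were seen, as were the search for a step, the boundary at 45 Mb, the GC box and the sequence windows. Some sequences are not reported here. Python 3.11.15, matplotlib 3.10.9, numba 0.67.0, scipy 1.17.1, pandas 2.3.3 and numpy 2.4.6 were used. Alternatives concerned the distance range, the start of the segment, the anchors included, the minimum count, the expectation and each replicate left out.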

Additional observations from a re-analysis of the deposited data

How the results depend on the processing

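None of the ratios given here crossed 1 under the alternatives listed with it, but for pairs of 20.9 to 205 kb across 46 Mb the ratio to pairs within the part from 46 Mb on was 1.38 and 1.63 in replicates 1 and 2. The ratio of depth to the other autosomes, 1.85, was 1.66 with tags of all distances, 1.09 with tags over 2 Mb only, 2.02 with counts of an anchor with itself, 1.76 for medians, 1.81 without promoter anchors, 1.65 without the deepest 1% of anchors, 1.57 after standardisation, and 1.87, 1.94 and 1.95 with the segment from 41, 45 and 46 Mb. In the same order the ratio to the rest of chromosome 17, 1.94, was 1.86, 1.52, 1.69, 2, 1.99, 1.70, 1.67, 1.83, 1.91 and 1.88, and 1.75 per kb of anchor width. Strong loops per anchor relative to the other autosomes, 3.70, were 5.92 with a summed count of at least 10, 5.55 with at least 5 in each replicate, 5.07 for loops of 20 kb or more, 2.31 per loop, 4.69 per Mb and 3.88 with the segment from 46 Mb. Relative to the rest of the chromosome, 3.10, they were 4.14, 3.93, 5.09, 1.76, 3.55 and 2.58. With a count of at least 5 in 1 replicate alone they were 4.63 to 4.83 and 3.68 to 3.68.

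The contact ratio of the segment to the other autosomes, 1.62, was 1.44 from 200 kb to 2 Mb, 1.16 from 2 to 10 Mb, 1.52 with promoter overlap in the expectation, and 1.63 and 1.68 with the segment from 41 and 46 Mb. That of pairs across its start to pairs within it, 0.441, was 0.653 from 2 to 10 Mb. With the start at 41 and 46 Mb it was 0.474 and 0.698. For pairs of 2 to 10 Mb these starts gave 0.714 and 0.722. This pair of settings was added after the data were seen, as was the start at 45 Mb. Leaving out a replicate gave 0.373 to 0.508. The count of loops above expectation in both replicates, 1, was 63 with distance alone, 10 with summed counts and 2 to 3 with 1 replicate. It was 0 with the pair kept in the depth of its anchors (one-sided exact Poisson test). There, 150 of the 62811 loops of the segment had an unadjusted p under 0.05 in both replicates, with no genome share at hand. The causes of these shifts were not tested. Of the 8 strongest long loops, 7 and 6 were also among the 8 strongest of replicates 1 and 2 alone, and of the 8 deepest promoter anchors 7 and 7. No paired analysis was possible because the data hold 1 group.

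Depth limits single loops more than regions, since most loops had few tags and a loop of 4 and 6 tags rests on the sum of the replicates. No DNA input was used here, so copy number was not measured.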
